A study of Mus musculus with 9 samples.

Results

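Colon RNA was compared between mice given an antibody against S100a9 and mice given control IgG, both within the AOM/DSS model of colitis-associated cancer. All 6 samples of these 2 groups were used, of the 9 samples sequenced, and the remaining 3, from untreated Control mice, are given only as a reference level. The mice were male ICR, an outbred stock, and were 5 weeks old at the start. Both AOM/DSS groups received 10 mg/kg of the carcinogen azoxymethane (AOM) once by intraperitoneal injection, and then drank 3 cycles of dextran sulfate sodium (DSS), an agent that damages the lining of the colon (2% over 7 days in the first cycle, 1.5% over 5 days in each later cycle). The AOM/DSS + anti-S100a9 Ab mice were given 1.5 mg/kg of a rabbit polyclonal antibody raised against whole mouse S100a9, and the AOM/DSS + IgG Ab mice 1.5 mg/kg of negative control IgG, intravenously every 2 days while DSS was given. Tissue came from the end of week 18, and Control mice had neither AOM/DSS nor antibody. The labels number 3 biological replicates in each group, and they call all 6 AOM/DSS samples colorectal adenocarcinoma, whereas the study's text speaks of intestinal mucosa, and in one place of adenocarcinoma for the IgG Ab group and of mucosa for the anti-S100a9 Ab group, so a difference in how much tumor the samples hold cannot be told apart from the antibody in any result. The samples were whole tissue, so fewer cells of a type and less RNA per cell cannot be told apart in any value below.

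S100a9 forms calprotectin with S100a8, a calcium-, zinc- and manganese-binding protein that fills the cytosol of neutrophils and is released by activated myeloid cells. Outside the cell it is known to signal through the receptors Tlr4 and RAGE (Ager), to raise cytokines and CXC chemokines, and to draw in more neutrophils. Tumors of the AOM/DSS model commonly carry activating mutations of beta-catenin, so their epithelium runs the Wnt program of crypt stem cells and its feedback inhibitors while it loses the transporters of mature colonocytes.

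Values were analyzed as FPKM, fragments scaled by transcript length and library size, on the scale log2(FPKM + 0.1), on which the change of a gene with low values is understated. Of 21498 gene symbols, 15038 had at least 0.1 FPKM in at least 3 of the 6 samples and were tested with limma, and a gene was called when its adjusted p was under 0.05 and it differed more than 2-fold. How many fragments each value rests on is not known. Gapdh, Ppia and Rps18, housekeeping genes, were listed at under 1 FPKM in all 9 samples, so an exact 0 is reported only as the listed value. The 3 anti-S100a9 Ab samples correlated with each other at 0.957 to 0.97 over genes, the 3 IgG Ab samples at 0.912 to 0.944, and IgG Ab replicate 1 stood furthest from its group, with a sample weight of 0.259 in limma against 0.577 and 1.385 for the other IgG Ab samples and 1.313 to 2.712 for the anti-S100a9 Ab samples.

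The anti-S100a9 Ab samples differed from the IgG Ab samples in 1604 genes, 10.7% of those tested, of which 667 (4.44%) were higher and 937 (6.23%) lower. The falls were the larger changes: the median log2 fold change was -1.82 among genes called lower and 1.50 among genes called higher, against -0.06 over all genes tested, and 194 genes fell more than 8-fold whereas 24 rose more than 8-fold. At the thresholds of the study's methods, which leave p unadjusted, 1110 genes (7.38%) were higher and 1242 (8.26%) lower. The number of calls depended on which samples entered. Without IgG Ab replicate 1, 605 genes were higher and 793 lower; without replicate 2 the counts were 1036 and 1046, and without replicate 3 they were 324 and 462. Without anti-S100a9 Ab replicate 1, 2 or 3, only 16, 1 and 1 genes passed as higher and 95, 2 and 9 as lower, although 805, 998 and 847 were higher and 1182, 1100 and 1212 lower at the unadjusted threshold. Each of the 1604 genes that could be tested without a given sample kept its direction there, and each had an unadjusted p under 0.05. The 1604 were chosen with all 6 samples in the fit, so both outcomes are largely built in, here and for the lists below. A call below marks a difference that passes the adjustment over all genes with all 3 anti-S100a9 Ab samples in the fit.

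**Figure D1:**
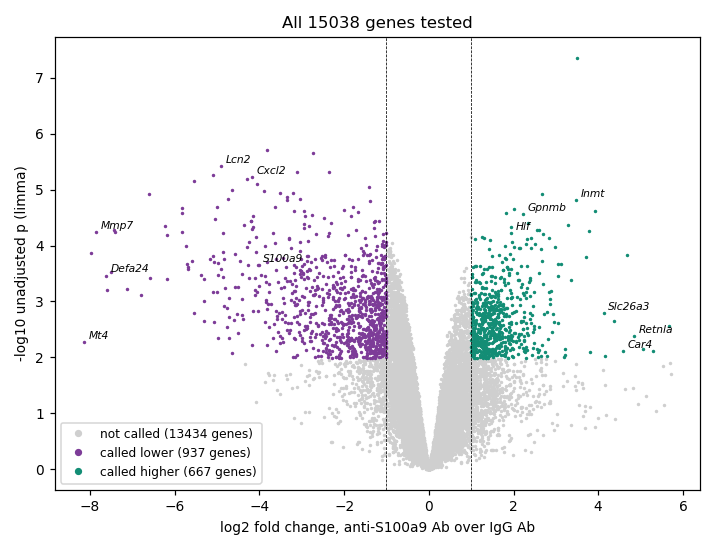
Each point is 1 of the 15038 genes tested, with its log2 fold change of anti-S100a9 Ab over IgG Ab (x axis, limma fit of 3 against 3 samples) and -log10 of its unadjusted p (y axis); dashed lines mark a 2-fold change. The 937 genes called lower reach -8.14 on the x axis, beyond the reach of the 667 genes called higher on the other side, of which the highest is at 5.66.

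Compared with the Control samples, the genes that rose and those that fell differed in where they ended. Of the 667 genes called higher, 321 (48.1%) were above all 3 Control samples in all 3 anti-S100a9 Ab samples, a position held by 17.6% of all genes tested, and 328 overlapped the Control samples. Being called higher already favors high anti-S100a9 Ab values, so a share above that of all genes is partly built in. Of the 937 genes called lower, 703 (75%) overlapped the Control samples, against 68.8% of all genes tested, 98 (10.5%) were still above all Control samples and 136 (14.5%) were below all of them, a position held by 13.6% of all genes. Within the anti-S100a9 Ab group, replicate 1 was the highest sample for 535 of the 937 genes called lower (57.1%, against 38.2% of all genes), and within the IgG Ab group replicate 1 was the highest for 614 of them (65.5%, against 46.1%).

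Transcript length moved with these differences. The median length of the longest annotated transcript was 5007 bases for genes called higher, 2329 bases for genes called lower and 3262 bases for all genes tested. Across 5 groups of genes of equal size, from the shortest to the longest, the median log2 fold change was -0.42, -0.25, -0.10, 0.05 and 0.30. When a smooth curve on length was taken out of each sample, 356 genes were called higher and 519 lower, with 789 of the 1604 calls shared, and the directions of all 1570 calls that had a length were kept. In the longest group the anti-S100a9 Ab samples had median log2 differences of 0.22, 0.09 and 0.15 from the mean of the 6 samples. In the Control samples these were -0.02, -0.13 and -0.53. The part of length in any single gene's result, or in the position of called genes against Control, was not tested.

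**Figure D2:**
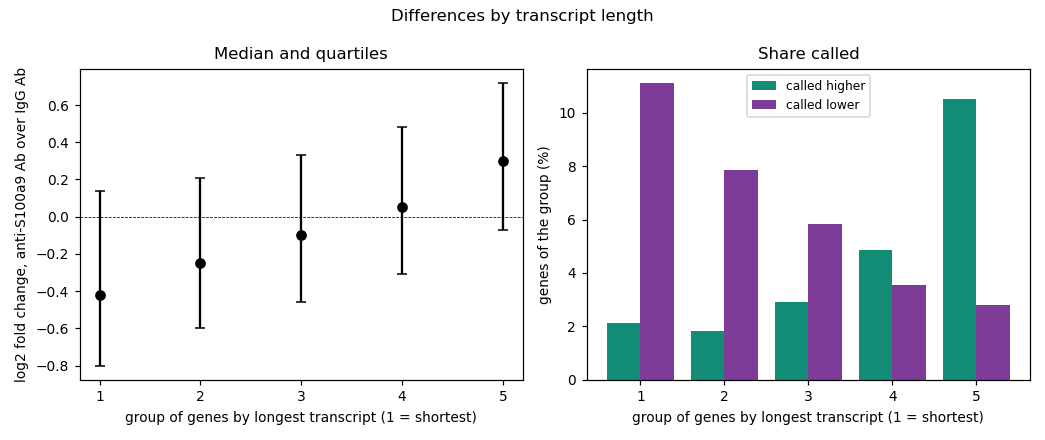
Genes with an annotated length are split into 5 equal groups by their longest transcript (x axis, from shortest to longest). The left panel gives the median log2 fold change of anti-S100a9 Ab over IgG Ab with its quartiles as bars, which climbs from -0.42 to 0.30; the right panel gives the percentage of each group called higher, 2.14% in the first and 10.5% in the last, and called lower, 11.1% in the first and 2.79% in the last.

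The target of the antibody and its partner were lower in the treated colon, and some other genes that mark neutrophils fell with them. S100a9 was at 63.1, 173 and 267 FPKM with IgG Ab and at 10.3, 11.6 and 5.54 FPKM with anti-S100a9 Ab (log2 fold change -4.02 ± 0.55 (SE), adjusted p = 0.015). S100a8 was at 35.7, 141 and 242 FPKM and at 5.33, 13.3 and 3.69 FPKM in the same order (log2 fold change -4.03 ± 0.77 (SE), adjusted p = 0.022). Neither gene overlapped between the antibody groups, and both remained above all 3 Control samples, in which S100a9 was at 0.37, 0.859 and 0.575 FPKM and S100a8 at 0.261, 0.951 and 0.608 FPKM. Of 26 listed neutrophil genes, 24 were tested, 1 of them passing the filter through the IgG Ab samples alone. Of the 24, 10 fell (41.7%, against 6.23% of all genes tested) and none rose, with a list median of -2.22. Among those that fell were Retnlg, which encodes a resistin-like protein of mature neutrophils, at 5.38, 34 and 75.6 FPKM with IgG Ab and 1.18, 1.21 and 0.816 FPKM with anti-S100a9 Ab (log2 fold change -4.39 ± 0.90 (SE), adjusted p = 0.024), and Mmp9, the gelatinase of neutrophil granules, at 25.3, 11.5 and 20.1 FPKM and 2.42, 1.89 and 2.49 FPKM (log2 fold change -2.95 ± 0.31 (SE), adjusted p = 0.012). Stfa2, a stefin of neutrophils, was listed at 0 in all anti-S100a9 Ab and Control samples and at 0.192, 1.96 and 4.66 FPKM in the IgG Ab samples, and Csf3r, the receptor for the neutrophil growth factor G-CSF, did not pass the test (log2 fold change -0.73, adjusted p = 0.11). Of the 24 neutrophil genes tested, 14 were not called. The summed level of the list overlapped between the antibody groups, at 254.1, 685.3 and 844.1 FPKM with IgG Ab and 218, 299.1 and 211.5 FPKM with anti-S100a9 Ab. In Control it was 319.1, 166.9 and 240.1 FPKM. The median longest transcript of the 24 was 1323 bases, and 5 genes of the list were called lower after the length correction. Without IgG Ab replicate 1, 2 or 3 the list had 14, 6 and 5 genes called lower, and without anti-S100a9 Ab replicate 1, 2 or 3 it had 1, 0 and 0.

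Some chemokines that call neutrophils into tissue fell as well. The list held 8 genes, 6 CXC chemokines and the neutrophil receptors Cxcr1 and Cxcr2, of which 6 were tested. Of these, 4 (66.7%, against 6.23% of all genes tested), all chemokines, were lower: Cxcl3 (-4.52), Cxcl2 (-4.18), Cxcl5 (-3.68) and Cxcl1 (-2.14), as log2 fold changes. Cxcl3 passed the filter through the IgG Ab samples alone, at 1.87, 1.33 and 16 FPKM there and 0.0828, 0.0421 and 0.0444 FPKM with anti-S100a9 Ab. Cxcl5, a chemokine of epithelial cells, was at 36.6, 66.7 and 30.8 FPKM in the IgG Ab samples, 4.95, 3.34 and 1.97 FPKM in the anti-S100a9 Ab samples and 0.408, 0.0704 and 0.309 FPKM in Control (log2 fold change -3.68 ± 0.41 (SE), adjusted p = 0.012). For Cxcl2 the values were 5.56, 3.16 and 5.42 FPKM with IgG Ab and 0.106, 0.194 and 0.181 FPKM with anti-S100a9 Ab, and it was listed at 0 in all Control samples (log2 fold change -4.18 ± 0.32 (SE), adjusted p = 0.0099). All 4 stayed above every Control sample in every anti-S100a9 Ab sample. For Cxcl3, under 0.1 FPKM with anti-S100a9 Ab, and for Cxcl2, at no more than 0.194 FPKM there, this order rests on values near the floor. The summed level of the list, receptors included, was 68.6 to 80.9 FPKM with IgG Ab, 6.38 to 8.63 FPKM with anti-S100a9 Ab and 0.543 to 1.56 FPKM in Control. Without IgG Ab replicate 3 or anti-S100a9 Ab replicate 1 there were 2 calls on this list, and without anti-S100a9 Ab replicate 2 or 3 there was none, with each of the 4 genes keeping an unadjusted p under 0.05 there. Among 29 other chemokines 2 fell, 6.9% against 6.23% of all genes tested: Cxcl14 (log2 fold change -2.88 ± 0.37 (SE), adjusted p = 0.015) and Ccl4 (log2 fold change -1.79 ± 0.48 (SE), adjusted p = 0.044), and the monocyte chemokine Ccl2 did not pass (log2 fold change -0.57, adjusted p = 0.5).

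Some inflammatory cytokines were lower. Of 27 listed cytokines, 18 were tested, 7 fell (38.9%, against 6.23% of all genes tested) and none rose (list median -1.31). Il23a, a subunit of interleukin 23, which sustains Th17 cells, was at 13.9, 3.06 and 5.17 FPKM with IgG Ab and at 0.31, 0.0784 and 0.197 FPKM with anti-S100a9 Ab (log2 fold change -4.46 ± 0.60 (SE), adjusted p = 0.015). Il11, a stromal cytokine that signals through Stat3, went from 6.45, 1.95 and 9.84 FPKM to 0.895, 0.403 and 0.205 FPKM (log2 fold change -3.26 ± 0.69 (SE), adjusted p = 0.026). The antibody groups lay apart in both genes, and the anti-S100a9 Ab samples overlapped the Control samples for Il23a and stayed above them for Il11. Tnf (log2 fold change -1.83 ± 0.44 (SE), adjusted p = 0.035), Lif (log2 fold change -1.67 ± 0.27 (SE), adjusted p = 0.018) and Il1b (log2 fold change -1.56 ± 0.36 (SE), adjusted p = 0.033) fell less, and Il6, at no more than 0.573 FPKM in any of the 6 samples, missed the threshold (log2 fold change -1.66, adjusted p = 0.052). Il6 had passed the filter through the IgG Ab samples alone. Without IgG Ab replicate 1 the list had 3 calls, without replicate 3 it had 4, and without any 1 of the anti-S100a9 Ab samples it had 0, with all 7 keeping an unadjusted p under 0.05.

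In the list of acute-phase and epithelial defence genes, 6 of the 18 tested fell (33.3%, against 6.23% of all genes tested), with a list median of -0.53. The summed level overlapped between groups, at 1067, 3523 and 3110.0 FPKM with IgG Ab and 2195, 3298 and 2547 FPKM with anti-S100a9 Ab. Lcn2, which withholds iron from bacteria, was at 95.6, 77.7 and 176 FPKM with IgG Ab and at 4.18, 4.3 and 2.53 FPKM with anti-S100a9 Ab (log2 fold change -4.90 ± 0.35 (SE), adjusted p = 0.0099), and haptoglobin (Hp) was at 6.16, 46.8 and 104 FPKM and 1.01, 1.18 and 1.04 FPKM (log2 fold change -4.73 ± 0.95 (SE), adjusted p = 0.024). Saa3, an acute-phase serum amyloid, had the largest fall of the list (log2 fold change -5.82 ± 0.55 (SE), adjusted p = 0.011). Reg3g, a C-type lectin active against Gram-positive bacteria, was at 53, 67.6 and 114 FPKM and 11.3, 39.6 and 4.6 FPKM and missed the threshold (log2 fold change -2.53, adjusted p = 0.056), with the groups not overlapping and all anti-S100a9 Ab samples above the Control samples, which were at 1.61, 0.31 and 2.04 FPKM. Calls on the list numbered 7, 3 and 2 without IgG Ab replicate 1, 2 and 3 and 2, 0 and 1 without anti-S100a9 Ab replicate 1, 2 and 3. None of the 12 calprotectin receptors and signal adaptors was called, against 10.7% of all genes tested, a share at which so short a list can lack calls. Tlr4 was at 2.93, 3.5 and 2.01 FPKM with IgG Ab and 4.53, 4.61 and 5.59 FPKM with anti-S100a9 Ab (log2 fold change 0.81, adjusted p = 0.062), and Ager at 1.16, 1.15 and 1.52 FPKM and 0.996, 0.659 and 0.666 FPKM (log2 fold change -0.67, adjusted p = 0.12). Tlr4 was among 2 genes of the list higher without overlap and Ager among 3 lower, positions held by 18.5% and 28.8% of all genes tested. The summed level of the 12 was 649.7, 716.7 and 652.4 FPKM with IgG Ab and 469, 489.6 and 517.8 FPKM with anti-S100a9 Ab. No gene of that list passed the thresholds without adjustment either.

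The beta-catenin program was the longest list of falls. Of 32 listed beta-catenin targets and Wnt feedback inhibitors, 30 were tested, 18 were lower and 1 was higher, with a list median of -1.89; among all genes tested, 6.23% were called lower. Notum, which cuts the lipid from Wnt ligands, was at 255, 45 and 65.3 FPKM in the IgG Ab samples and at 3.22, 0.397 and 0.0628 FPKM in the anti-S100a9 Ab samples (log2 fold change -7.14 ± 1.16 (SE), adjusted p = 0.018). The transcription factor Sp5, a direct Wnt target, was at 91.9, 36.4 and 35.2 FPKM and 0.956, 0.236 and 0.266 FPKM (log2 fold change -6.60 ± 0.56 (SE), adjusted p = 0.0099). Wif1, a secreted inhibitor that binds Wnt ligands, was at 657, 142 and 143 FPKM and 9.26, 3.7 and 0.866 FPKM (log2 fold change -6.19 ± 0.94 (SE), adjusted p = 0.016). In these 3 genes IgG Ab replicate 1 was the highest IgG Ab sample and anti-S100a9 Ab replicate 1 the highest of its group, yet every IgG Ab value was above every anti-S100a9 Ab value. The receptor Lgr5, a marker of crypt stem cells, was at 17.8, 2.54 and 10.5 FPKM and 0.623, 0.44 and 0.333 FPKM (log2 fold change -3.84 ± 0.69 (SE), adjusted p = 0.02), and Axin2, a scaffold of the beta-catenin destruction complex, at 98.5, 26.5 and 27.7 FPKM and 9.05, 7.14 and 8.03 FPKM (log2 fold change -2.36 ± 0.50 (SE), adjusted p = 0.026). Axin2 remained above all Control samples, at 5.6, 5.84 and 3.87 FPKM, as 4 of the 18 did, whereas Lgr5 overlapped the Control range of 1.27, 1.46 and 0.265 FPKM. Apcdd1 (log2 fold change -5.39 ± 0.79 (SE), adjusted p = 0.016) and Nkd1 (log2 fold change -3.19 ± 0.57 (SE), adjusted p = 0.02), a pair of membrane and intracellular Wnt inhibitors, fell too. The gene that rose, Nkd2, belongs to the same family as Nkd1 and is named for its direction after its value was seen (log2 fold change 1.42, adjusted p = 0.022).

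Promoter letters are shown for the Wnt targets that carry a T cell factor (TCF/LEF) motif, the DNA letters through which beta-catenin's partners bind. The motif CTTTGAT, on either strand, was searched in the 250 bases before the start of each gene in RefSeq annotation of GRCm38.p6. A promoter was listed for 19 of the 32 genes, and 2 of them, Sp5 and Tnfrsf19, held the motif, which was present in 3.21% of 32851 promoters of all genes. Both genes fell, Sp5 as above and Tnfrsf19, a Wnt-induced receptor of the TNF receptor family, from 21.2, 8.56 and 5.49 FPKM to 3.35, 1.94 and 1.45 FPKM (log2 fold change -2.19 ± 0.54 (SE), adjusted p = 0.036). The windows lie at chr2:70474673-70474922, plus strand, and at chr14:61037988-61038237, minus strand, and capitals mark the motif or its reverse complement.
Sp5 promoter: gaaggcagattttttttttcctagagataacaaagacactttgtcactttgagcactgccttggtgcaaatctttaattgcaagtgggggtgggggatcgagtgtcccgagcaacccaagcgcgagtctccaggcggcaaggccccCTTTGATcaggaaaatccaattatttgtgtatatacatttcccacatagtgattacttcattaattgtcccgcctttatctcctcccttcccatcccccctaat
Tnfrsf19 promoter: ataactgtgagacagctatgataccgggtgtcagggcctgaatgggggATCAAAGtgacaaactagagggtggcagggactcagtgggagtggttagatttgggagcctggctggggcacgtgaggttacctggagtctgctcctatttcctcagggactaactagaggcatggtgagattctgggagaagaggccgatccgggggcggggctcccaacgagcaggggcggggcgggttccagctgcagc
The capitals mark letters and not a bound site, and the other Wnt targets with a listed promoter have no such letters in this window.

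Wnt ligands and receptors changed in both directions. Of 45 listed, 39 were tested, and 3 of the 39 had passed the filter through the IgG Ab samples alone. Of the 39, 6 fell (15.4%) and 3 rose (7.69%), against 6.23% and 4.44% of all genes tested. Wnt10a was at 85.1, 15.6 and 20.4 FPKM with IgG Ab and 0.903, 0.339 and 0.313 FPKM with anti-S100a9 Ab (log2 fold change -5.73 ± 0.69 (SE), adjusted p = 0.014), Wnt6 at 139, 30.0 and 30.2 FPKM and 2.72, 0.933 and 1.3 FPKM (log2 fold change -4.97 ± 0.67 (SE), adjusted p = 0.015), and the receptor Fzd10 at 21.8, 4.21 and 2.75 FPKM and 0.373, 0.0884 and 0.0686 FPKM (log2 fold change -4.71 ± 0.82 (SE), adjusted p = 0.019). Wnt2b, a ligand of stromal cells, ran the other way, at 1.15, 1.99 and 0.741 FPKM with IgG Ab and 5.2, 6.05 and 6.04 FPKM with anti-S100a9 Ab (log2 fold change 2.17 ± 0.35 (SE), adjusted p = 0.018), above the 3.3, 3.35 and 1.37 FPKM of the Control samples. Intestinal stem cell genes had 7 falls (43.8%) and 1 rise (6.25%) among 16 tested, against 6.23% and 4.44% of all genes tested. The falls included Smoc2 (log2 fold change -2.49 ± 0.58 (SE), adjusted p = 0.032) and Msi1 (log2 fold change -2.90 ± 0.47 (SE), adjusted p = 0.018), beside Lgr5 and Axin2. Leaving out single samples gave 15, 18 and 11 Wnt targets called lower without IgG Ab replicate 1, 2 and 3, and 5, 0 and 0 without anti-S100a9 Ab replicate 1, 2 and 3, with all 18 keeping an unadjusted p under 0.05 each time. After the length correction 17 Wnt targets were called, and the median longest transcript of the list was 4108 bases.

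**Figure D3:**
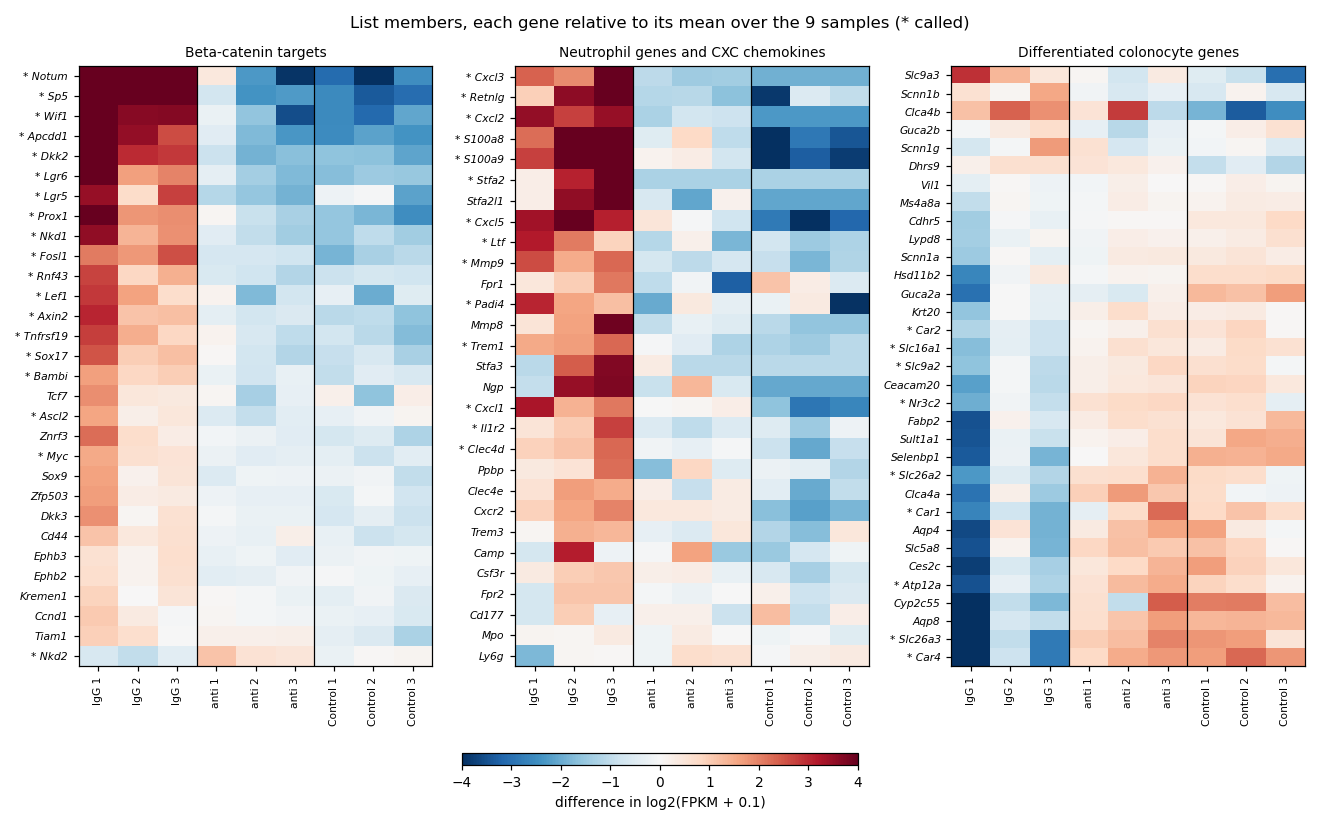
Rows are tested members of 3 sets, ordered by log2 fold change: beta-catenin targets, neutrophil genes with CXC chemokines, and differentiated colonocyte genes; columns are the 9 samples (IgG and anti are the antibody groups of AOM/DSS mice). Color gives the difference in log2(FPKM + 0.1) from the gene's mean over the 9 samples, cut at 4 in either direction, and asterisks mark called genes, 18 of the first set lower and 1 higher; IgG 1 has the deepest color among the beta-catenin targets and the lowest values of most colonocyte genes.

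The deepest falls were in genes of Paneth cells, which normally line small intestinal crypts and secrete antimicrobial peptides, and in digestive and metal-binding genes. Of 21 listed Paneth cell genes 7 were listed at 0 in all 6 samples and 11 were tested, 1 of them passing through the IgG Ab samples alone. Of the 11, 9 fell (81.8%, against 6.23% of all genes tested). Mmp7, matrilysin, the protease that activates alpha-defensins, was at 263, 148 and 353 FPKM with IgG Ab, 3.1, 1.17 and 0.173 FPKM with anti-S100a9 Ab and 0.0353, 0.125 and 0.724 FPKM in Control (log2 fold change -7.85 ± 0.86 (SE), adjusted p = 0.012). Defa24, an alpha-defensin, was at 330.2, 770.5 and 542 FPKM and 12.2, 3.19 and 0.337 FPKM in the antibody groups and at 0.333, 0 and 0.778 FPKM in Control (log2 fold change -7.63 ± 1.13 (SE), adjusted p = 0.016). Ang4, an antimicrobial ribonuclease, was at 106, 301 and 371 FPKM and 5.64, 3.59 and 1.23 FPKM (log2 fold change -6.23 ± 0.66 (SE), adjusted p = 0.012), and Lyz1, the Paneth cell lysozyme, at 259, 312 and 459 FPKM and 68.6, 16.6 and 38.5 FPKM (log2 fold change -3.24 ± 0.51 (SE), adjusted p = 0.017). In Mmp7 and Defa24 the anti-S100a9 Ab samples ranged over more than 10-fold, with replicate 1 highest, and still lay below every IgG Ab sample. Defa17 fell by 7.42 on the log2 scale and was listed at 0 in all but 1 anti-S100a9 Ab sample; alpha-defensin genes are near-identical copies, so how reads were shared among them is uncertain, and of 13 in the files 4 were tested and all 4 fell. The median longest transcript of the 11 Paneth cell genes tested was 1104 bases, and 7 genes of the list were called lower after the length correction. There were 8, 7 and 7 calls without IgG Ab replicate 1, 2 and 3, and 7, 0 and 1 without anti-S100a9 Ab replicate 1, 2 and 3.

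Of the 4 metallothioneins, small cysteine-rich proteins that hold zinc and copper, 2 fell and 2 did not pass the test. Mt4, the form of stratified epithelia, was at 1592, 599 and 295 FPKM with IgG Ab and 34.1, 3.55 and 0 FPKM with anti-S100a9 Ab, the largest fall of all genes tested (log2 fold change -8.14 ± 1.99 (SE), adjusted p = 0.036). Mt3, the form of neurons, was at 687, 272 and 258 FPKM and 13, 4.41 and 2.06 FPKM (log2 fold change -6.18 ± 0.69 (SE), adjusted p = 0.013). The widely expressed Mt1 and Mt2 had values of 167, 166 and 1291 FPKM against 63, 85.7 and 320.1 FPKM, and 237, 166 and 1429 FPKM against 28.9, 28.1 and 191 FPKM, overlapped between groups and were not called (log2 fold change -1.46, adjusted p = 0.3, and -2.83, adjusted p = 0.095). A test of the difference between the pairs of genes was not made. Slc30a2, a zinc transporter, fell beside them, from 214, 68.1 and 63.4 FPKM to 5.04, 0.552 and 0.104 FPKM (log2 fold change -6.79 ± 1.16 (SE), adjusted p = 0.019). The pattern TGCNCNC, a looser form of the metal response motif that the metal-sensing factor Mtf1 reads, was found on either strand in the 250 bases before all 4 metallothioneins, and also in 44.4% of 32851 promoters, so its presence sets these genes apart from few others. A match to this pattern is not shown to be an Mtf1 site. The 3 windows shown are of Mt2, which was not called, and of Mt3 and Mt4, which fell, and they lie in 1 cluster on chromosome 8 of GRCm38.p6, at chr8:94172368-94172617, plus strand, chr8:94152357-94152606, plus strand, and chr8:94136954-94137203, plus strand, with letters that match the pattern in capitals.
Mt2 promoter: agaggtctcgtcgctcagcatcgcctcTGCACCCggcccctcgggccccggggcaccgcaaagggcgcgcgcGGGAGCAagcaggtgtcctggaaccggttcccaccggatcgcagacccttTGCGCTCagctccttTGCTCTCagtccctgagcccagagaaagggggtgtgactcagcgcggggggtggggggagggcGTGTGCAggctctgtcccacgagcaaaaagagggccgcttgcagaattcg
Mt3 promoter: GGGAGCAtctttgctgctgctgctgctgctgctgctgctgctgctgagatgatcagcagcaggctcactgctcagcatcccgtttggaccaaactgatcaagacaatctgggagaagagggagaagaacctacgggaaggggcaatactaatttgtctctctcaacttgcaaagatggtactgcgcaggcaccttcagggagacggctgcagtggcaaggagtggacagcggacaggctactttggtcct
Mt4 promoter: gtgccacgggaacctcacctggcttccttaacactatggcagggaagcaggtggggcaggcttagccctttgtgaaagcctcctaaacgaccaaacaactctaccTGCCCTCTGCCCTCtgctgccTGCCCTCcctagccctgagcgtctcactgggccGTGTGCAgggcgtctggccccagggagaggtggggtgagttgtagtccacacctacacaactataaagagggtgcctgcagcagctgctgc
Mt2 and Mt4 held 5 and 4 matches and Mt3 held 1, so the count of matches was not in the order of the fold changes.

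Some genes known from pancreas and stomach fell. The pancreatic lipase relatives Pnliprp1 and Pnliprp2 were at 1405, 430.3 and 148 FPKM and 701, 89.2 and 77.4 FPKM with IgG Ab and at 8.89, 3.11 and 0.334 FPKM and 4.2, 1.68 and 0.618 FPKM with anti-S100a9 Ab (log2 fold change -7.59 ± 1.24 (SE), adjusted p = 0.018, and log2 fold change -6.58 ± 0.99 (SE), adjusted p = 0.016). They were 2 of the 3 pancreatic acinar genes that fell, with the colipase gene Clps (log2 fold change -2.21 ± 0.45 (SE), adjusted p = 0.024), among 7 tested of 18 listed. The 3 were 42.9% of the 7, against 6.23% of all genes called lower. Of 13 listed stomach genes, 6 were tested, 4 of them through the IgG Ab samples alone, and all 6 fell, led by the mucin Muc6, at 11.9, 1.7 and 1.1 FPKM with IgG Ab and 0.113, 0.028 and 0 FPKM with anti-S100a9 Ab (log2 fold change -4.40 ± 0.87 (SE), adjusted p = 0.023). The summed level of the 13 stomach genes was 15.7, 4.11 and 4.54 FPKM with IgG Ab and 0.434, 0.232 and 0.109 FPKM with anti-S100a9 Ab. Without IgG Ab replicate 1, 2 or 3 only 2 of the 6 stomach genes could be tested, and without any 1 of the anti-S100a9 Ab samples none was called.

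Squamous and regenerative epithelial genes fell in part. Of 64 listed squamous epithelium and keratinocyte genes, 29 were tested, 4 of them through the IgG Ab samples alone. Of the 29, 10 fell (34.5%, against 6.23% of all genes tested) with none higher. Sprr2b, a cornified envelope protein, was at 5.27, 23.9 and 31.3 FPKM with IgG Ab and 1.41, 1.24 and 0.0671 FPKM with anti-S100a9 Ab (log2 fold change -4.52 ± 1.03 (SE), adjusted p = 0.031), and the keratins Krt4 (log2 fold change -3.40 ± 0.67 (SE), adjusted p = 0.023) and Krt14 (log2 fold change -3.30 ± 0.75 (SE), adjusted p = 0.032) were lower. Krt5, the partner of Krt14 in basal layers of skin, was at no more than 0.468 FPKM in any of the 6 samples and was not called (log2 fold change -0.41, adjusted p = 0.6). The summed level of the 64 genes was 1802, 939 and 665 FPKM with IgG Ab, of which Mt4 alone gave 1592, 599 and 295 FPKM, and 196, 192 and 182 FPKM with anti-S100a9 Ab. There were 7, 6 and 1 calls without IgG Ab replicate 1, 2 and 3, none without any 1 anti-S100a9 Ab sample, and 3 after the length correction. Of 17 genes linked to epithelial regeneration, the fetal gut and YAP activity, 8 fell (47.1%, against 6.23% of all genes tested). Among them was Msln, mesothelin, at 10.6, 5.49 and 13.7 FPKM and 0.982, 0.469 and 1.79 FPKM (log2 fold change -3.16 ± 0.52 (SE), adjusted p = 0.018). Other members did not: Ly6a (Sca-1) was at 257, 429 and 289 FPKM and 218, 305 and 234 FPKM (log2 fold change -0.34, adjusted p = 0.33), and Clu at 228, 139 and 315 FPKM and 156, 42.4 and 142 FPKM (log2 fold change -1.13, adjusted p = 0.18). Their count without IgG Ab replicate 1, 2 and 3 was 6, 8 and 6, and without anti-S100a9 Ab replicate 1, 2 and 3 it was 2, 0 and 0.

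**Figure D4:**
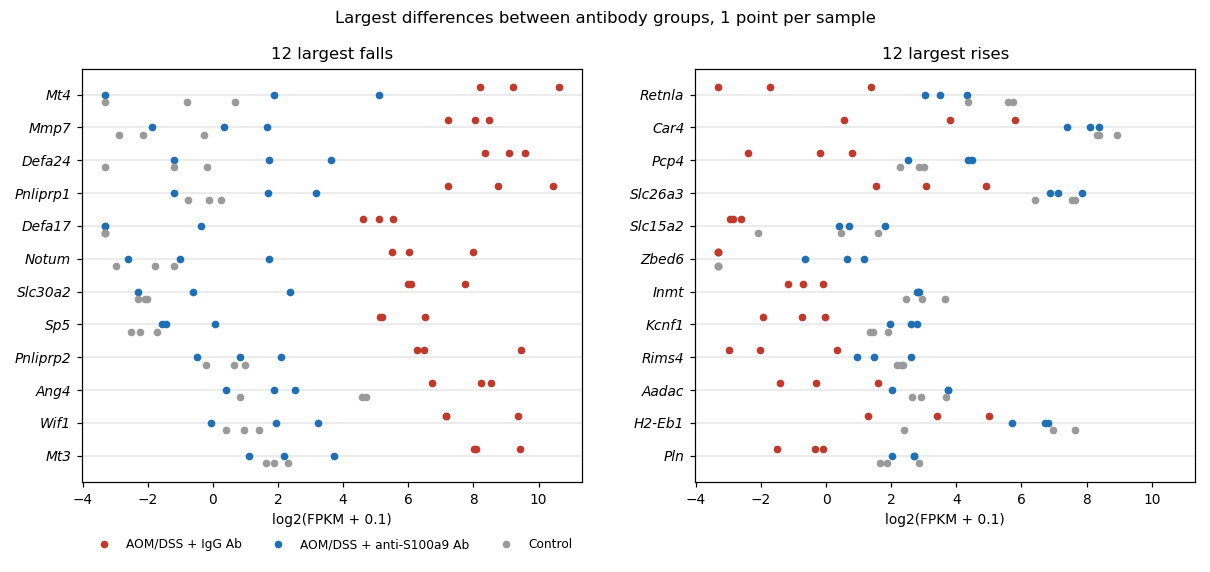
Each point is 1 sample, with log2(FPKM + 0.1) on the x axis and a gene on each row, for the 12 genes with the largest falls (left) and the 12 with the largest rises (right) under the naming rule; colors give the 3 groups. The IgG Ab and anti-S100a9 Ab points do not overlap in any row, which the rule required, and the Control points are drawn as a reference level.

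Genes of the extracellular matrix and its turnover fell in part. Of 27 listed matrix metalloproteinases and inhibitors, 23 were tested, 7 fell (30.4%) and 1 rose (4.35%), against 6.23% and 4.44% of all genes tested. Mmp10, stromelysin 2, was at 32.7, 9.69 and 64.3 FPKM with IgG Ab and 1.83, 0.392 and 0.882 FPKM with anti-S100a9 Ab (log2 fold change -4.81 ± 0.78 (SE), adjusted p = 0.018), and Timp1, which inhibits metalloproteinases, was at 19.7, 113 and 67 FPKM and 4.32, 3.22 and 3.28 FPKM (log2 fold change -3.85 ± 0.60 (SE), adjusted p = 0.017). Timp1 was the only inhibitor of the list called, and 15 of the 23 genes tested were not called. Of the 7 that fell, 4 stayed above all Control samples. There were 9, 8 and 5 calls without IgG Ab replicate 1, 2 and 3, and 2, 0 and 1 without anti-S100a9 Ab replicate 1, 2 and 3. Among 35 collagen genes tested, 8 were lower (22.9%) and 3 higher (8.57%), against 6.23% and 4.44% of all genes tested. Col1a1, the main fibrillar collagen, was at 68.6, 489 and 358 FPKM with IgG Ab and 48.6, 38.2 and 33 FPKM with anti-S100a9 Ab (log2 fold change -2.54 ± 0.70 (SE), adjusted p = 0.048); IgG Ab replicate 1 was near the anti-S100a9 Ab samples. The cartilage-type collagen gene Col9a3 fell more (log2 fold change -3.56 ± 0.55 (SE), adjusted p = 0.017), whereas the basement membrane collagen Col4a1 was not called (log2 fold change -1.19, adjusted p = 0.12). Calls of lower collagens numbered 11, 5 and 3 without IgG Ab replicate 1, 2 and 3 and 0 without any 1 anti-S100a9 Ab sample. Among 20 fibroblast genes the only 2 calls were Col1a1 and Col3a1 (log2 fold change -1.86, adjusted p = 0.048). The 2 were 10% of the list, against 6.23% of all genes called lower. Pdgfra, a receptor of fibroblasts, was at 14.6, 9.96 and 14 FPKM and 11.4, 9.07 and 9.0 FPKM (log2 fold change -0.38, adjusted p = 0.2).

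Of 39 integrin and laminin genes tested, 12.8% were called higher and 7.69% lower, against 4.44% and 6.23% of all genes tested. The laminin chain Lama1 (log2 fold change -2.69 ± 0.44 (SE), adjusted p = 0.018) was among 3 that fell, and 5 rose, including Itga8, an integrin of smooth muscle and stroma, at 0.279, 0.684 and 0.917 FPKM with IgG Ab and 2.82, 3.01 and 2.77 FPKM with anti-S100a9 Ab (log2 fold change 2.14 ± 0.39 (SE), adjusted p = 0.021), and Itga4, an integrin of lymphocytes (log2 fold change 2.01 ± 0.46 (SE), adjusted p = 0.032). Without any 1 anti-S100a9 Ab sample none of the 8 was called. Of 22 endothelial and angiogenesis genes, 6 fell, including Prox1, a regulator of lymphatic endothelium and also a beta-catenin target in colon tumors (log2 fold change -3.36 ± 0.75 (SE), adjusted p = 0.03), the growth factor Pgf (log2 fold change -3.18 ± 0.64 (SE), adjusted p = 0.024) and, with smaller changes, the vessel factors Angpt4 and Apln among them. The pan-endothelial markers Pecam1, at 5.85, 12.2 and 16.5 FPKM and 19.4, 11.8 and 13.6 FPKM, and Cdh5, at 3.57, 6.12 and 10.8 FPKM and 7.08, 6.01 and 4.72 FPKM, overlapped between groups and were not called (adjusted p = 0.41 and 0.9). The 6 calls were 27.3% of the list, against 6.23% of all genes called lower. They became 5, 5 and 2 without IgG Ab replicate 1, 2 and 3 and 0 without any 1 anti-S100a9 Ab sample. Among 37 genes of the TGF-beta, BMP and activin families tested, 5 were lower, such as Inhbb, an activin subunit (log2 fold change -2.94 ± 0.51 (SE), adjusted p = 0.019), its antagonist Fst (log2 fold change -2.69 ± 0.35 (SE), adjusted p = 0.015) and Bmp7 (log2 fold change -2.52 ± 0.53 (SE), adjusted p = 0.026), and 3 were higher, such as the BMP antagonist Chrdl1, at 0.552, 2.05 and 1.99 FPKM and 9.01, 7.52 and 6.62 FPKM (log2 fold change 2.44 ± 0.48 (SE), adjusted p = 0.023). Tgfb1 itself was at 15.8, 20.1 and 22.8 FPKM and 18.2, 12.5 and 19.2 FPKM and was not called (log2 fold change -0.24, adjusted p = 0.44). All 3 genes of the family that rose were above every Control sample. The calls were 8.11% of the list higher and 13.5% lower, against 4.44% and 6.23% of all genes tested. Higher calls numbered 3, 4 and 3 without IgG Ab replicate 1, 2 and 3, and lower calls 5, 5 and 2. Without anti-S100a9 Ab replicate 1, 2 and 3 there were 0 higher calls each time, and 1, 0 and 0 lower.

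The rises included genes of mature colonocytes, which absorb salt and water and exchange bicarbonate. Of 35 listed, 34 were tested, 9 rose and 1 fell, with a list median of 1.39, against 4.44% of all genes called higher. Car4, a membrane carbonic anhydrase, was at 1.37, 55.4 and 13.9 FPKM with IgG Ab, 170.4, 278 and 330.0 FPKM with anti-S100a9 Ab and 318, 489.6 and 334 FPKM in Control (log2 fold change 4.58 ± 1.21 (SE), adjusted p = 0.043). Slc26a3, the chloride and bicarbonate exchanger of the colon, was at 2.79, 29.9 and 8.26 FPKM, 118, 139.6 and 233 FPKM and 200.1, 186 and 85.1 FPKM in the same order (log2 fold change 4.12 ± 0.80 (SE), adjusted p = 0.023). In both genes IgG Ab replicate 1 was lowest, the antibody groups did not overlap, and the anti-S100a9 Ab samples overlapped the Control samples. Atp12a, a colonic proton pump (log2 fold change 2.79 ± 0.77 (SE), adjusted p = 0.047), and Car1, a cytosolic carbonic anhydrase (log2 fold change 2.66 ± 0.73 (SE), adjusted p = 0.047), rose too, and Aqp8, a water channel, did not pass although its groups did not overlap (log2 fold change 3.63, adjusted p = 0.092). None of the 9 that rose was above all Control samples. The median longest transcript of the list was 2758 bases, and 3 genes were called higher after the length correction. Calls of higher colonocyte genes numbered 8, 16 and 0 without IgG Ab replicate 1, 2 and 3 and 0 without any 1 anti-S100a9 Ab sample, with all 9 keeping an unadjusted p under 0.05; 19 passed at the unadjusted thresholds. Aadac, an esterase of gut and liver (log2 fold change 3.22 ± 0.83 (SE), adjusted p = 0.041), and Slc15a2, a peptide transporter, at 0.029, 0.0629 and 0.0377 FPKM and 3.41, 1.54 and 1.22 FPKM (log2 fold change 3.79 ± 0.41 (SE), adjusted p = 0.012), were among the 12 largest rises; Slc15a2 passed the filter through the anti-S100a9 Ab samples alone.

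Other epithelial classes had few calls. Goblet cell genes had 0 calls in 18: the mucin Muc2 was at 51.6, 398 and 461 FPKM with IgG Ab and 183, 202 and 202 FPKM with anti-S100a9 Ab, with IgG Ab replicate 1 the lowest of the 6 and the other 2 IgG Ab samples the highest (log2 fold change -0.11, adjusted p = 0.93). Muc2 fell by 1.13 on the log2 scale without IgG Ab replicate 1 (adjusted p = 0.017), with 3 goblet cell genes called lower there and 1 called higher without replicate 2. Their summed level was 2162, 13870.0 and 17650.0 FPKM with IgG Ab and 7081, 8670.0 and 9873 FPKM with anti-S100a9 Ab. Enteroendocrine genes had 0 calls in 18, with Chga at 5.41, 24.4 and 43 FPKM and 24.8, 19.7 and 21.6 FPKM (adjusted p = 0.78). By the unadjusted thresholds 0 goblet cell genes were called, and 2 enteroendocrine genes were higher and 1 lower. Of 14 tuft cell genes tested, Avil fell (log2 fold change -4.16 ± 0.41 (SE), adjusted p = 0.011) and Chat, which passed the filter through the anti-S100a9 Ab samples alone, rose (log2 fold change 1.13 ± 0.26 (SE), adjusted p = 0.032), and the defining transcription factor Pou2f3 was at no more than 0.292 FPKM in any of the 6 samples. Cell cycle genes had 2 falls among 33: Cdkn2a, which encodes inhibitors of the cycle, at 8.93, 7.02 and 11.2 FPKM and 0.241, 0.575 and 0.321 FPKM (log2 fold change -4.29 ± 0.33 (SE), adjusted p = 0.0099), and Cdc20, an activator of the anaphase-promoting complex, at 23.9, 21 and 25.1 FPKM and 11.2, 10.9 and 12.1 FPKM (log2 fold change -1.02 ± 0.12 (SE), adjusted p = 0.014). Mki67 was at 8.72, 8.81 and 10.9 FPKM and 7.82, 10.1 and 12.3 FPKM and did not pass (log2 fold change 0.07, adjusted p = 0.81). Cdk1, the kinase that starts mitosis, was at 11.5, 11.1 and 12.7 FPKM and 5.69, 5.55 and 8.45 FPKM and passed the adjusted p but not the fold threshold (log2 fold change -0.86 ± 0.20 (SE), adjusted p = 0.032), and Top2a passed neither (log2 fold change -0.37, adjusted p = 0.2). The list median was -0.55, and 14 of the 33 were lower without overlap, a position held by 28.8% of all genes tested. The 2 calls were 6.06% of the list, against 6.23% of all genes called lower.

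Some genes of smooth muscle and enteric neurons rose with anti-S100a9 Ab, and their levels differed among the IgG Ab samples. Of 15 smooth muscle genes 4 rose (26.7%, against 4.44% of all genes tested) and none fell, with a list median of 1.51. They were Pgm5, a phosphoglucomutase relative of muscle adhesions, at 4.71, 13 and 24.7 FPKM with IgG Ab and 86.6, 73.4 and 54.7 FPKM with anti-S100a9 Ab (log2 fold change 2.60 ± 0.57 (SE), adjusted p = 0.028), the intermediate filament protein Synm (log2 fold change 2.48 ± 0.55 (SE), adjusted p = 0.029), Synpo2 (log2 fold change 2.21 ± 0.57 (SE), adjusted p = 0.04) and Mylk, the kinase of myosin light chain, at 15.6, 21.7 and 34.9 FPKM and 98.4, 90.0 and 62.3 FPKM (log2 fold change 1.85 ± 0.32 (SE), adjusted p = 0.019). The defining markers Myh11, at 34.6, 69.8 and 189.9 FPKM and 372, 360.3 and 224 FPKM, Actg2, at 75.1, 132 and 619 FPKM and 495, 443 and 223 FPKM, and Des, at 60.6, 156 and 584 FPKM and 642, 509 and 307 FPKM, were not called (adjusted p = 0.056, 0.37 and 0.23). Over the 15 genes the summed level was 670.4, 1343 and 4033 FPKM with IgG Ab, 5096, 4472 and 2876 FPKM with anti-S100a9 Ab and 2211, 3695 and 3682 FPKM in Control, so IgG Ab replicate 3 lay within the range of the anti-S100a9 Ab samples and the other IgG Ab samples below it. Without IgG Ab replicate 3 there were 10 calls, without replicate 1 or 2 there were 3 each, without any 1 anti-S100a9 Ab sample none, and after the length correction 1. Pln, phospholamban, which restrains the calcium pump of muscle, was among the 12 largest rises (log2 fold change 3.12 ± 0.43 (SE), adjusted p = 0.015). Of 19 enteric neuron and glia genes tested, 3 rose: Nos1, the neuronal nitric oxide synthase, at 0.108, 0.384 and 0.675 FPKM and 1.97, 1.49 and 1.81 FPKM (log2 fold change 2.11 ± 0.49 (SE), adjusted p = 0.033), Elavl4 (log2 fold change 1.80 ± 0.44 (SE), adjusted p = 0.036) and Chat, the enzyme of acetylcholine synthesis, which entered the test as said for the tuft cell list. The 3 were 15.8% of the list, against 4.44% of all genes called higher. Higher neuron and glia calls numbered 4, 5 and 1 without IgG Ab replicate 1, 2 and 3, and 0 without any 1 anti-S100a9 Ab sample. Kcnf1, a potassium channel subunit (log2 fold change 3.37 ± 0.52 (SE), adjusted p = 0.016), Pcp4, a calmodulin-binding peptide, at 0.0898, 1.65 and 0.771 FPKM and 20.4, 22.2 and 5.59 FPKM (log2 fold change 4.38 ± 0.91 (SE), adjusted p = 0.025), and Rims4, of the synaptic release machinery (log2 fold change 3.23 ± 0.89 (SE), adjusted p = 0.047), were also among the 12 largest rises. The part of muscle content in these rises was not tested.

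Lymphocyte and MHC class II lists had medians above that of all genes tested, and most of their calls were on the T and NK cell list. Of 24 T and NK cell genes 5 rose (20.8%) and 1 fell (4.17%), against 4.44% and 6.23% of all genes tested (list median 1.12). By the unadjusted thresholds 10 of the 24 were higher and 1 lower. Cd4, the co-receptor of helper T cells and of some macrophages, was at 3.18, 6.08 and 2.21 FPKM with IgG Ab and 15.4, 14.3 and 23 FPKM with anti-S100a9 Ab (log2 fold change 2.26 ± 0.38 (SE), adjusted p = 0.019), the costimulatory receptor Cd28 rose (log2 fold change 2.28 ± 0.61 (SE), adjusted p = 0.044), and so did Ncr1, an activating receptor of NK cells, at 0.0484, 0.621 and 0 FPKM and 1.17, 1.19 and 1.86 FPKM (log2 fold change 2.74 ± 0.73 (SE), adjusted p = 0.044). The subunits of the T cell receptor complex overlapped between groups, with Cd3e at 3.39, 4.64 and 1.17 FPKM and 6.07, 2.92 and 4.55 FPKM (log2 fold change 0.68, adjusted p = 0.37), and Gzma, a granzyme of cytotoxic cells, fell from 19.6, 7.08 and 8.08 FPKM to 1.99, 1.35 and 0.664 FPKM (log2 fold change -2.99 ± 0.51 (SE), adjusted p = 0.019). Calls of higher T and NK cell genes numbered 1, 12 and 1 without IgG Ab replicate 1, 2 and 3 and 0 without any 1 anti-S100a9 Ab sample. Among 29 monocyte and macrophage genes, 2 fell and 2 rose, each 6.9% of the list, near the 6.23% and 4.44% of all genes tested. Arg1, arginase, fell from 11.9, 10.3 and 59.5 FPKM to 0.475, 0.461 and 0.0701 FPKM (log2 fold change -5.68 ± 0.79 (SE), adjusted p = 0.015), and Spp1, osteopontin, from 51.8, 17.9 and 21.4 FPKM to 0.76, 0.477 and 1.12 FPKM (log2 fold change -5.01 ± 0.47 (SE), adjusted p = 0.011). Retnla, a resistin-like protein of alternatively activated macrophages, rose from 0.203, 2.49 and 0 FPKM to 8.08, 19.9 and 11.2 FPKM, the largest rise under the naming rule, and was at 20.2, 47.9 and 53 FPKM in Control (log2 fold change 4.84 ± 1.13 (SE), adjusted p = 0.033). Gpnmb, a glycoprotein of lipid-laden macrophages, rose from 10.0, 8.61 and 8.55 FPKM to 31.6, 44 and 55.3 FPKM and passed the Control samples, at 4.32, 3.1 and 5.87 FPKM (log2 fold change 2.22 ± 0.22 (SE), adjusted p = 0.011). The general markers Csf1r (0.34) and Cd68 (0.60) were not called (adjusted p = 0.4 and 0.24). Adgre1 (F4/80), the third, was at 3.39, 7.57 and 4.16 FPKM and 8.06, 11.1 and 11.1 FPKM, without overlap, and missed the threshold (log2 fold change 1.05, adjusted p = 0.059); without IgG Ab replicate 2 its adjusted p was 0.018.

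MHC class II genes had a list median of 1.54 with 1 of 10 called, H2-Eb1, at 2.32, 10.5 and 31.7 FPKM with IgG Ab and 106, 52 and 112 FPKM with anti-S100a9 Ab (log2 fold change 3.19 ± 0.89 (SE), adjusted p = 0.049), while 1 Control sample was at 5.2 FPKM against 125 and 199 FPKM in the others. By the unadjusted thresholds 5 of the 10 were higher and 0 lower. B and plasma cell genes had the highest list median, 1.66, and no call in 20: Ms4a1, which encodes the B cell surface protein CD20, was at 0.471, 11.9 and 0.523 FPKM and 28.1, 6.02 and 32.3 FPKM (adjusted p = 0.099), with IgG Ab replicate 2 far above the other IgG Ab samples. At the unadjusted thresholds 5 of the 20 were higher and 0 lower. Immunoglobulin variable segments are near-identical copies whose reads may be shared: of 93 heavy chain segments tested 7 were higher and 1 lower, and of 94 kappa segments 2 were higher. Interferon-stimulated genes had no call in 27, with 1 higher and 1 lower at the unadjusted thresholds, and Isg15 at 11.7, 47.5 and 20.9 FPKM and 12.6, 48 and 86.2 FPKM. Of 12 mast cell and eosinophil genes tested, 1 fell, 8.33% against 6.23% of all genes tested. This was Tpsab1, a mast cell tryptase gene annotated as a transcribed pseudogene, which went from 24.4, 10.1 and 13.4 FPKM to 1.11, 1.26 and 0.976 FPKM (log2 fold change -3.63 ± 0.34 (SE), adjusted p = 0.011). The defining members were not called: in fits without 1 sample Cpa3 ran from -2.11 to -1.3, Fcer1a from -1.95 to -1.12 and Kit from 0.76 to 1.4 on the log2 scale. The summed level of the list was 198.2, 262.3 and 46.93 FPKM with IgG Ab and 47.36, 47.23 and 36.45 FPKM with anti-S100a9 Ab. Of 5 red cell genes tested, Alas2, which starts heme synthesis in red cells, fell (log2 fold change -2.32 ± 0.31 (SE), adjusted p = 0.015). Hemoglobin genes gave a measure of blood in the tissue: Hba-a1 was at 23.8, 125 and 99.4 FPKM and 19.5, 26.8 and 28.5 FPKM and was not called (adjusted p = 0.13).

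Metabolic lists had few calls. Of 77 nuclear genes of the respiratory chain tested only Ndufa4 was called, at 368, 255 and 352 FPKM and 157, 170.1 and 153 FPKM (log2 fold change -1.004 ± 0.18 (SE), adjusted p = 0.02). Fatty acid oxidation and ketogenesis genes had 1 rise in 30, the lipid-sensing nuclear receptor Ppara (log2 fold change 1.69 ± 0.32 (SE), adjusted p = 0.022), and 2 falls, including Vnn1 (log2 fold change -2.79 ± 0.37 (SE), adjusted p = 0.015). The rise was 3.33% of the list and the falls 6.67%, near the 4.44% and 6.23% of all genes tested. In glycolysis, Slc16a3, the lactate exporter Mct4, fell from 18.9, 20.7 and 15.2 FPKM to 3.14, 3.31 and 3.89 FPKM and stayed above Control (log2 fold change -2.37 ± 0.18 (SE), adjusted p = 0.0099). Cyp2b10, a xenobiotic-metabolizing cytochrome P450, fell from 2.68, 2.16 and 3.1 FPKM to 0.118, 0.0682 and 0.0182 FPKM (log2 fold change -4.06 ± 0.32 (SE), adjusted p = 0.0099), and of the conjugation enzymes the glutathione transferase Gstm7 fell (log2 fold change -3.28 ± 0.50 (SE), adjusted p = 0.016) and the sulfotransferase Sult1d1 rose (log2 fold change 2.49 ± 0.62 (SE), adjusted p = 0.037). Ugt1a7c rose as well (log2 fold change 1.58 ± 0.41 (SE), adjusted p = 0.04), with the reservation that the Ugt1a genes share their last exons. Called lower were 6.25% of the cytochrome P450 genes and 6.67% of the conjugation enzyme genes tested, and called higher 3.12% and 10%. Inmt, a methyltransferase of small amines, had one of the most even rises, from 0.512, 0.847 and 0.349 FPKM to 7.14, 6.94 and 6.87 FPKM (log2 fold change 3.47 ± 0.31 (SE), adjusted p = 0.0099), and Hpgd, which inactivates prostaglandins, rose from 16.5, 52.8 and 38.7 FPKM to 114, 101 and 106 FPKM (log2 fold change 1.72 ± 0.40 (SE), adjusted p = 0.033) while Ptgs2, the inducible cyclooxygenase, did not pass (log2 fold change -0.05, adjusted p = 0.89). Among 18 clock genes 4 rose, including Hlf (log2 fold change 1.95 ± 0.22 (SE), adjusted p = 0.012) and Per2 (log2 fold change 1.70 ± 0.38 (SE), adjusted p = 0.03), and Nfil3, a repressor of the same promoters as Hlf, fell (log2 fold change -2.19 ± 0.40 (SE), adjusted p = 0.021). The 4 rises were 22.2% of the list, against 4.44% of all genes called higher. Higher clock calls numbered 1, 6 and 1 without IgG Ab replicate 1, 2 and 3, and 0 without any 1 anti-S100a9 Ab sample. Zbed6, a transcription factor gene that lies within Zc3h11a, was under 0.0001 FPKM in every IgG Ab sample and at 1.46, 2.13 and 0.538 FPKM with anti-S100a9 Ab (log2 fold change 3.71 ± 0.48 (SE), adjusted p = 0.015), and as reads of overlapping genes may be assigned to either, this rise is uncertain. Zbed6 had passed the filter through the anti-S100a9 Ab samples alone.

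**Figure D5:**
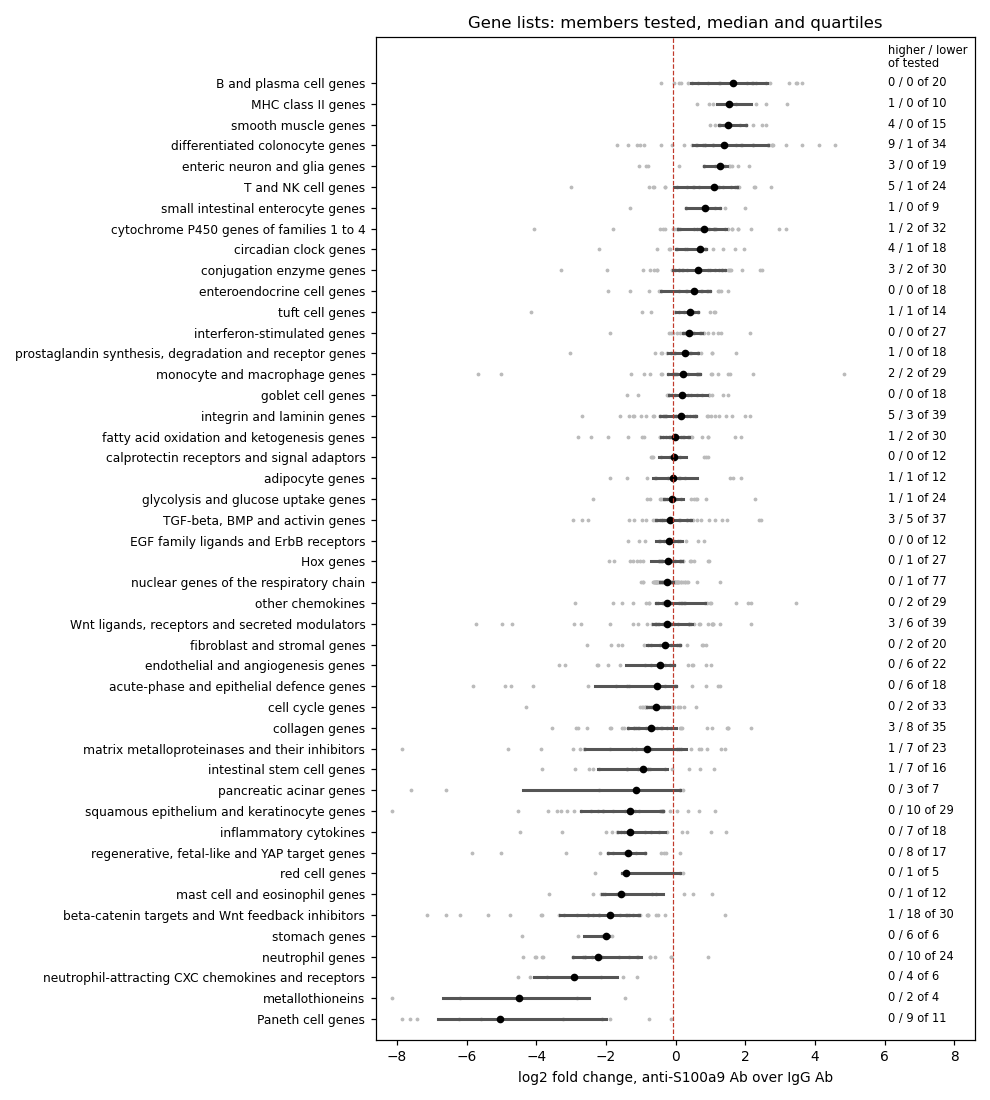
Rows are the 46 gene lists, ordered by the median log2 fold change of anti-S100a9 Ab over IgG Ab among the members tested (black points; dark bars are quartiles, pale points are genes), and the dashed line is the median of all genes tested, -0.06. Numbers at the right count members called higher and lower of those tested; Paneth cell genes have the lowest median and B and plasma cell genes, without a call, the highest.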

How the data were processed

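RNA from the colon of 3 AOM/DSS + anti-S100a9 Ab, 3 AOM/DSS + IgG Ab and 3 Control mice was compared, 1 library per mouse. The authors deposited 1 table per mouse with FPKM values by gene symbol; the unit was read from the values, as the files do not name it. The submitters' processing notes name TopHat, Cufflinks, HTSeq and DESeq and the GRCm38 build, with no versions or roles. Depth is unknown, so no counting error could be given, and precision came from the 3 mice per group.

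From these, the 46 rows that repeat a symbol were summed, and genes that reached 0.1 FPKM in 3 or more of the 6 AOM/DSS samples were tested as log2(FPKM + 0.1) with limma 3.58.1 in R 4.3.3 (two-sided moderated test, intensity trend, Benjamini-Hochberg over 15038 genes). DESeq, which needs counts, was not repeated. In simulated data for this comparison (15038 genes, 200 changed), 81.5% of the genes shifted by 2 on the log2 scale and 96.5% of those shifted by 3 were recovered, with 11 and 9 unchanged genes called. Noise was drawn independently for each gene with equal spread in both groups, and only genes with a positive mean log2 value were shifted. Neither the unequal samples nor the length trend was simulated, so these figures do not give the recovery in the real comparison. Genes named in the text were S100a8 and S100a9, the 12 largest rises and falls (groups apart, adjusted p under 0.05, either group averaging 1 FPKM or more), immunoglobulin and unnamed gene models left out, and in each list the 3 defining members and up to 4 called members with the largest changes. Not every gene the rule covers is printed, and genes outside it are said to be so. The comparison, the lists and the genes were chosen with earlier results of these data known, so lists carry no test and are described by counts and medians. Some genes are on more than 1 list, and a few members that count in the lists are not reported here by name. Lengths are of the longest GENCODE M21 transcript, and positions and promoters are from RefSeq on GRCm38.p6. Alternatives covered the samples in the fit, the replicate block, the thresholds, the pseudocount, the filter, the scaling, the intensity trend and sample weights; the length correction and the fits over all 9 samples without 1 sample were added after seeing the data. Python 3.11.15, pandas 2.3.3, numpy 2.4.6 and matplotlib 3.10.9 were used.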

Additional observations from a re-analysis of the deposited data

How the results depend on the processing

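All 1604 called genes kept their direction under every alternative in which they could be tested, which is largely built in, as they were chosen from the same samples. Counts moved more. The fit with the replicate number as a block called 934 genes, 294 of them higher, with 5 neutrophil, 4 squamous and 0 smooth muscle genes; the labels pair nothing else by number, the deviations of same-numbered samples from the group means correlated at 0.128, 0.105 and -0.052, and not every sample correlated best with its own number, so the samples were taken to share only a number. A pseudocount of 1 gave 965 calls (352 higher, 613 lower), the length correction 875 (356 and 519; 5 neutrophil, 3 colonocyte, 3 squamous and 1 smooth muscle genes), unadjusted p 1110 higher, with 19 colonocyte and 8 smooth muscle genes, and adjusted p without a fold threshold 3130 (1064 higher and 2066 lower). Of the latter 34.0% were higher, against 44.2% with median-of-ratios scaling and 47.6% with quantile normalization. Higher colonocyte genes numbered 14 in the fit over all 9 samples and 5 without the filter or without the intensity trend, and smooth muscle genes 7 with sample weights. Leaving out 1 sample gave 3 to 2082 calls in fits of the other 5 samples, the fewest without an anti-S100a9 Ab sample, and 475 to 2285 when the Control samples were also fitted. Over both kinds of fit the ranges were 3 to 2285 calls, 1 to 1133 higher and 2 to 1152 lower, 0 to 8 Paneth cell genes, 0 to 20 Wnt targets, 0 to 21 colonocyte genes, 0 to 14 neutrophil genes, 0 to 4 CXC chemokines, 0 to 15 smooth muscle genes and 0 to 8 squamous genes. Of 85 named genes not called, 15 changed sign between the fits without 1 sample, and 1 of them, Cyp3a13, passed the adjusted p with the other sign: its log2 fold change was 0.12 with all 6 samples, -0.65 without IgG Ab replicate 1 (adjusted p = 0.043) and 0.57 without replicate 3. With the block, 3 of the 85 passed the adjusted p where they had missed it, Mt1 (0.042), Mt2 (0.0098) and Areg (0.046), and in the fit over all 9 samples so did Areg, Il6 (0.029), Itgb8 (0.035), Kit (0.049) and Myh11 (0.033). Of 132 named genes called, 92 had an adjusted p under 0.05 with the block and 127 in the fit over all 9 samples. The cause of these moves was not tested. With unknown depth and 3 mice a group, a gene that missed the threshold is not shown to be equal between the groups.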

Other observations

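Gene groups not described above had few calls. Among 12 EGF family ligands and ErbB receptors tested, none was called: the ligand Areg was at 12.7, 11.7 and 32.2 FPKM with IgG Ab and 7.29, 4.37 and 8.34 FPKM with anti-S100a9 Ab, without overlap (log2 fold change -1.38, adjusted p = 0.067 in limma, and 0.046 in the fit over all 9 samples), and 2 genes of the list were lower and 0 higher at the unadjusted thresholds. Of 27 Hox genes tested, Hoxb8 fell, from 0.917, 0.937 and 0.731 FPKM to 0.306, 0.128 and 0.0794 FPKM (log2 fold change -1.91 ± 0.37 (SE), adjusted p = 0.023), while Hoxb13, which marks the distal colon, was at 121, 159.6 and 156 FPKM and 162, 183 and 142 FPKM (adjusted p = 0.51). Of 12 adipocyte genes tested, the lipoprotein lipase gene Lpl fell (log2 fold change -1.87 ± 0.41 (SE), adjusted p = 0.028) and the activin receptor Acvr1c rose (log2 fold change 1.66 ± 0.37 (SE), adjusted p = 0.03). Among 9 small intestinal enterocyte genes tested, the sodium-glucose transporter Slc5a1 rose from 12.9, 25.9 and 16.6 FPKM to 34, 40.5 and 42.3 FPKM (log2 fold change 1.12 ± 0.26 (SE), adjusted p = 0.032). The smallest adjusted p of all genes, 0.00066, belonged to the unnamed gene model Gm10263, singled out after its values were seen, which was at 6.42, 5.67 and 5.85 FPKM with IgG Ab and 61.4, 74.6 and 69.2 FPKM with anti-S100a9 Ab.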
